A study of Homo sapiens with 6 samples.

Results

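The genes of cholesterol and fatty acid synthesis were followed in H1299, a human cell line from a non-small cell lung carcinoma, which lacks p53 protein. The list named 36 genes in 3 roles: 17 enzymes of sterol synthesis, 8 genes of sterol regulation and efflux, and 11 enzymes of fatty acid synthesis. A gene was taken as measured when the platform annotation gave a row of the deposited table that gene's symbol alone. This held for 34 of the 36 listed genes, among 22375 genes measured in all. FADS1, a fatty acid desaturase, shares its row with another symbol, and ACSL3, a fatty acyl-CoA synthetase, is not listed with a row, so neither was analysed here.

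Total RNA of the cells was hybridised to 6 arrays. In the DMSO group, 3 arrays, the cells had received the vehicle alone. In the PD 0332991 group, also 3 arrays, the vehicle held 500 nM of PD 0332991 (palbociclib), which blocks the kinases CDK4 and CDK6 of the cell cycle. Both groups were parental H1299 cells kept for 14 days, in RPMI medium with 10% fetal bovine serum, which itself carries lipoproteins. The study's title presents the drug as a means of reactivating the retinoblastoma protein, so the comparison asks how transcript levels differ after prolonged CDK4 and CDK6 inhibition. The groups come from 1 cell line. Nothing in the labels says whether a group's arrays stem from separate cultures, and the p-values therefore cover only the spread between these samples, which may be technical.

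Cells make cholesterol from acetyl-CoA by way of mevalonate, farnesyl diphosphate, squalene and lanosterol, and they make fatty acids from the same acetyl-CoA through malonyl-CoA. Both routes are driven by the SREBP transcription factors, which SCAP carries from the endoplasmic reticulum to the Golgi for cleavage when sterols are low and which the INSIG proteins hold back when sterols are plentiful. Oxysterols, formed when cholesterol is in excess, activate the LXR nuclear receptors, whose known targets include the efflux pump genes ABCA1 and ABCG1 and the gene of the factor SREBP-1. Proliferating tumour cells draw on both routes for membrane lipid.

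On the deposited log2 scale the array medians over all 65535 rows lay between 4.85 and 4.98. Within groups, Pearson's r across rows, which are not independent replicates, was 0.993 to 0.995, against 0.969 to 0.973 between groups. DMSO replicate 1 and PD 0332991 replicate 2 stood apart from the other arrays along principal component 2 (10.9% of the variance, with 73.3% on component 1). Their scores there were 34.2 and 36.2. The other arrays were also spread, with DMSO replicate 3 at -27.5, PD 0332991 replicate 1 at -32.8, DMSO replicate 2 at -6.1 and PD 0332991 replicate 3 at -4.1. Levels of KRT8, KRT18 and VIM, markers of a carcinoma line with mesenchymal character, were 14.0, 14.1 and 15.7 in DMSO, and after PD 0332991 KRT8 rose by 0.79 (adjusted p = 9.10e-05), VIM fell by 0.57 (adjusted p = 0.000296) and KRT18 did not pass. In DMSO, CDH1, EPCAM and KRT19 lay between 4.51 and 5.02, near the array medians. All 6 airway and alveolar markers had DMSO means from 3.89 to 5.14, and the 8 hepatocyte and adipocyte markers, cells known for high lipid synthesis, from 3.62 to 5.07. Of 9 measured blood, endothelial and fibroblast markers 8 had DMSO means between 3.53 and 4.88 and PECAM1 alone rose, by 0.40, from 3.53 to a level of 3.93, below every array median. The other, CD68, encodes a lysosomal protein and fell by 2.30 from 12.7. In bulk RNA, fewer cells expressing a gene and less of its RNA per cell cannot be told apart.

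After PD 0332991 the sterol synthesis enzymes were mostly lower, while the efflux pump gene ABCA1 was higher by 4.62 and the fatty acid enzymes went both ways. By limma, fitted across all genes with the Benjamini-Hochberg adjustment and called at an adjusted p under 0.05, 19 of the 34 measured genes fell, 7 rose and 8 did not pass. Over all 22375 genes 38.1% were called, 18.5% lower and 19.6% higher. Calls are more frequent at high levels, and with all genes split into 5 equal bins of mean level 32 of the 34 lie in the upper 2 bins. The share of all genes called in those bins, weighted as the list is spread over them, was therefore taken as well. It was 67.6% called and 35.3% lower, against 76.5% called and 55.9% lower on the list. Changes of at least 1 on the log2 scale were found in 11 genes that fell and 2 that rose, where 5.43% of all genes fell and 4.52% rose by as much. The median change of the list was -0.45, and that of all genes tested was 0.00. In 32 of the 34 genes the 3 arrays of one group all lay above those of the other, against 47.5% of all genes. The 5.43%, 4.52% and 47.5% are over genes of all levels and were not matched to the levels of the list. Without the arrays that stood apart, 6 of the genes rose and 18 fell.

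**Figure D1:**
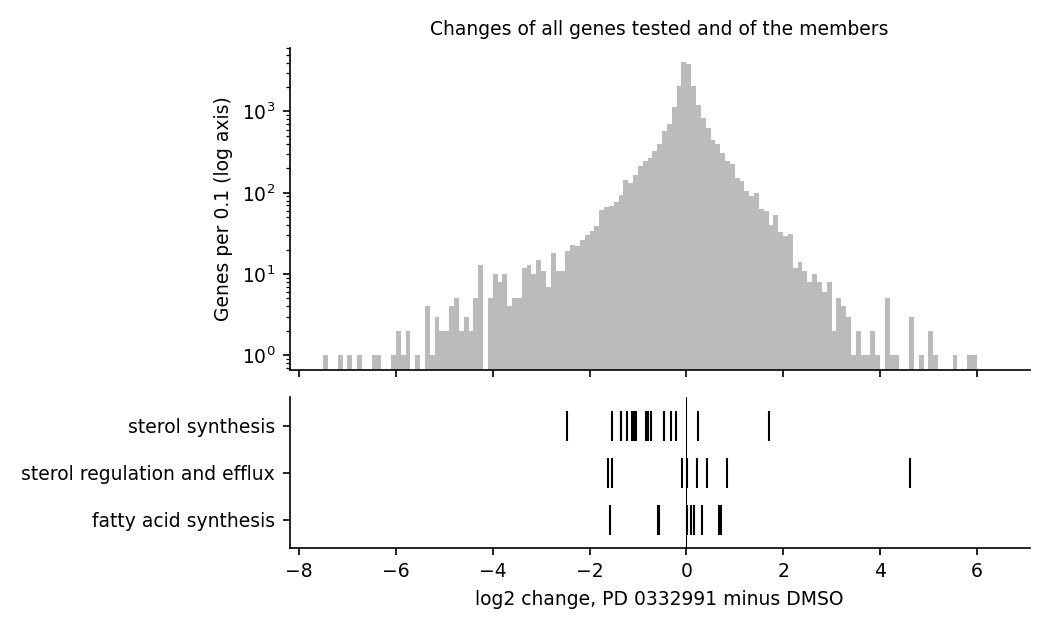
Upper panel: histogram of the log2 change (PD 0332991 minus DMSO) of all 22375 genes tested, with the number of genes per bin on a log axis. Lower panel: 1 mark for each of the 34 measured genes by role, with most sterol synthesis genes left of 0 and ABCA1 alone at 4.62.

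The roles are described in turn. Of the 17 sterol synthesis enzymes 14 fell (82.4%) and 1 rose, with a median change of -0.84, where the share of all genes lower at the same levels was 35.6%. Of the 8 genes of sterol regulation and efflux 3 rose (37.5%) and 2 fell (25.0%), with a median of 0.12, near the 29.4% higher and 31.8% lower of all genes at the same levels. The 9 measured fatty acid enzymes included 3 that rose and 3 that fell (33.3% each), with a median of 0.10, also near the 34.0% higher and 37.6% lower of all genes at the same levels. These are descriptions of the lists, since the members were chosen with earlier results of these arrays known, and no test was made of a difference between roles.

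**Figure D2:**
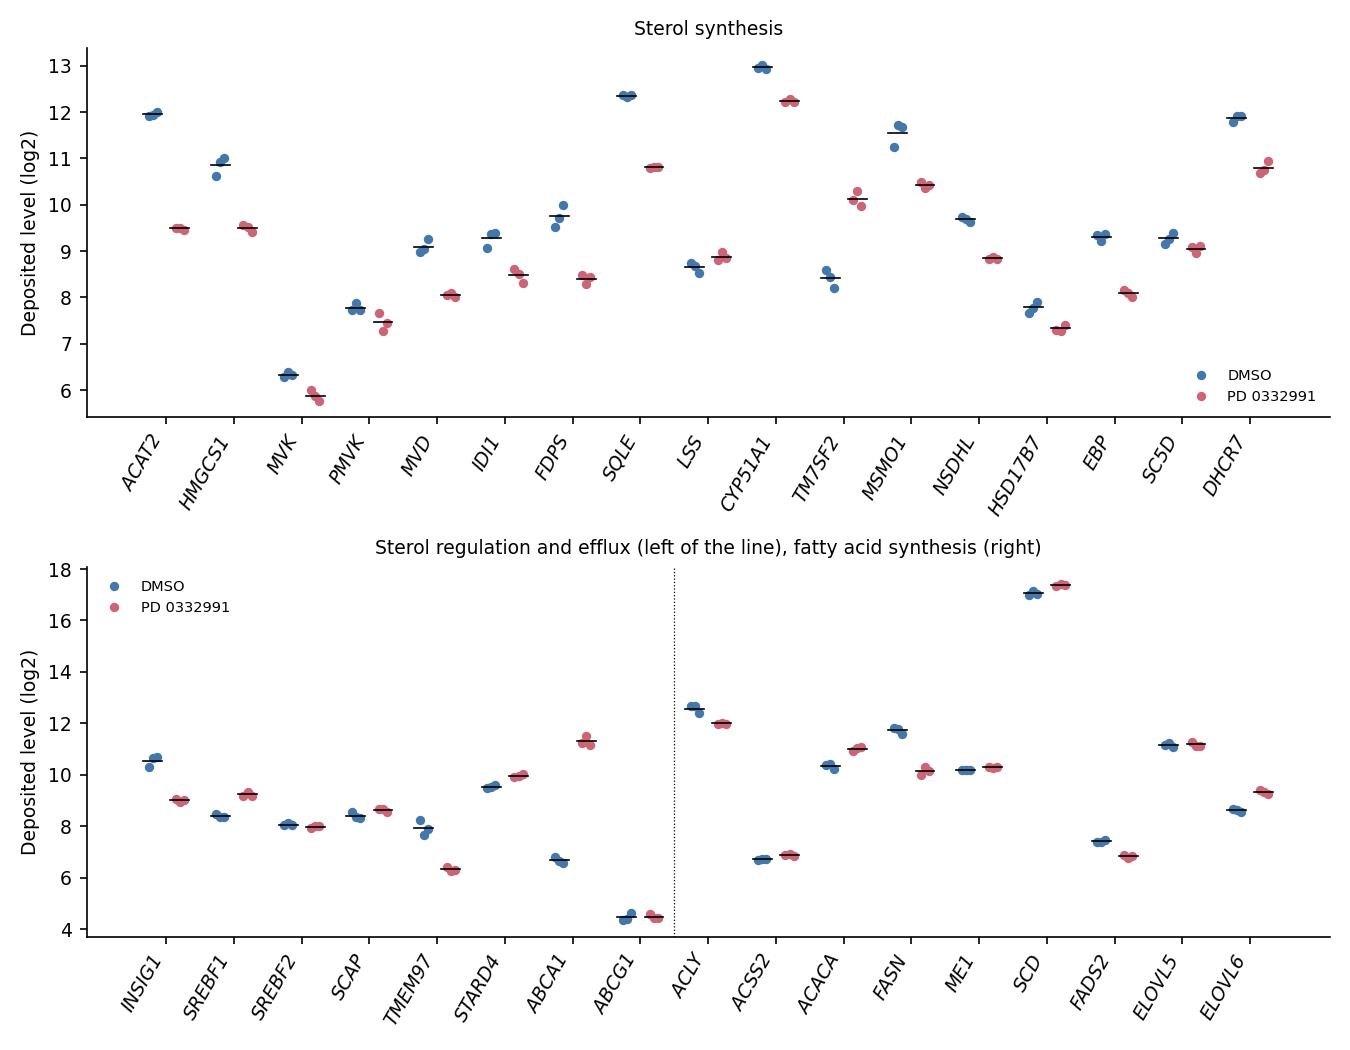
Deposited log2 level of each measured gene on each of the 6 arrays, with sterol synthesis enzymes in pathway order above and the other roles below; blue points are DMSO arrays, red points PD 0332991 arrays, and bars group means. The groups overlap in ABCG1 and ELOVL5 alone.

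The early steps of sterol synthesis, from acetyl-CoA to farnesyl diphosphate, fell at all 7 measured enzymes. ACAT2, the cytosolic thiolase that joins acetyl-CoA units, stood at 11.92, 11.93 and 12.01 on the DMSO arrays and at 9.51, 9.51 and 9.45 on the PD 0332991 arrays. It fell by 2.46 ± 0.07 (limma's standard error, n = 3 per group; adjusted p = 8.93e-08), the deepest fall on the list, and 222 of all genes fell further. The ACAT2 gene overlaps TCP1 and SOD2 in the RefSeq table, neither of which was measured as a single gene, and a share of their signal in its row was not tested. HMGCS1, the synthase that commits carbon to mevalonate, was at 10.61, 10.93 and 11.01 in DMSO and at 9.56, 9.52 and 9.41 under the drug. It fell by 1.35 ± 0.11 (adjusted p = 2.53e-05), and its highest drug-treated array lay about 1 unit under its lowest vehicle array.

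The mevalonate kinases changed least among these early enzymes. MVK, mevalonate kinase, had levels of 6.29, 6.38 and 6.33 in DMSO and of 5.99, 5.87 and 5.77 under the drug, and fell by 0.46 ± 0.08 (adjusted p = 0.00185). Its start region overlaps MMAB, a gene of cobalamin metabolism transcribed from the opposite strand, which fell by 1.42 (adjusted p = 5.77e-06). PMVK, phosphomevalonate kinase, measured 7.72, 7.87 and 7.73 against 7.65, 7.28 and 7.46, and fell by 0.31 ± 0.10 (adjusted p = 0.0477). PMVK did not overlap between groups, but its PD 0332991 replicate 1 came within 0.07 of the vehicle arrays, and the call was lost without DMSO replicate 1, 2 or 3 or PD 0332991 replicate 2 or 3 (adjusted p 0.0720 to 0.156) and without the arrays that stood apart (0.139).

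The decarboxylase, isomerase and prenyl synthase that follow fell more. MVD, which makes isopentenyl diphosphate, went from 8.98, 9.05 and 9.26 to 8.05, 8.10 and 8.01, and fell by 1.04 ± 0.09 (adjusted p = 3.29e-05). IDI1, which isomerises that product, went from 9.07, 9.38 and 9.38 to 8.60, 8.51 and 8.32, and fell by 0.80 ± 0.11 (adjusted p = 0.000586). FDPS, the farnesyl diphosphate synthase, went from 9.53, 9.71 and 10.00 to 8.49, 8.29 and 8.44, and fell by 1.34 ± 0.12 (adjusted p = 5.06e-05). DMSO replicate 1 was the lowest vehicle array for each of these 3 enzymes, and for 11 of the 17 sterol synthesis genes, compared with 40.2% of all genes. Pseudogenes of FDPS exist, and their part in its signal was not tested.

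At the entry into sterols proper, SQLE and LSS parted. SQLE, the squalene epoxidase and a rate-limiting oxygenase of the pathway, stood at 12.37, 12.33 and 12.37 in DMSO and at 10.79, 10.82 and 10.82 in PD 0332991. Its replicates were among the tightest of the list, with standard deviations of 0.02 in each group, and it fell by 1.54 ± 0.06 (adjusted p = 6.59e-07). LSS, the lanosterol synthase that cyclises the epoxide, read 8.75, 8.68 and 8.53 in DMSO and 8.81, 8.99 and 8.85 in PD 0332991. Its change of 0.23, with a 95% interval from 0.04 to 0.43, did not pass (adjusted p = 0.0662), although every drug-treated array lay above every vehicle array.

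Between lanosterol and cholesterol, 6 of 8 enzymes fell, SC5D did not pass and TM7SF2 rose. CYP51A1, the cytochrome P450 that demethylates lanosterol, moved from 12.95, 13.03 and 12.92 to 12.22, 12.28 and 12.21, and fell by 0.73 ± 0.07 (adjusted p = 5.22e-05). MSMO1, the sterol methyl oxidase, moved from 11.25, 11.72 and 11.67 to 10.50, 10.36 and 10.42 and fell by 1.12 ± 0.13 (adjusted p = 0.000173). NSDHL, the dehydrogenase of the same demethylation complex, moved from 9.74, 9.70 and 9.62 to 8.84, 8.88 and 8.83 and fell by 0.84 ± 0.07 (adjusted p = 2.17e-05). HSD17B7, the ketoreductase of that complex, fell less, by 0.45 ± 0.08 (adjusted p = 0.00283), from 7.67, 7.77 and 7.91 to 7.30, 7.28 and 7.42. Pseudogenes of HSD17B7 are known, and whether they add to its row was not tested.

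The closing steps also moved down in EBP and DHCR7. EBP, the sterol isomerase, had 9.34, 9.22 and 9.36 in DMSO against 8.16, 8.10 and 8.01, and fell by 1.22 ± 0.08 (adjusted p = 6.21e-06). DHCR7, the reductase that completes cholesterol, had 11.80, 11.92 and 11.91 against 10.69, 10.76 and 10.94, and fell by 1.08 ± 0.09 (adjusted p = 2.16e-05). SC5D, the desaturase placed between them, had 9.16, 9.27 and 9.39 against 9.09, 8.95 and 9.11. Its change of -0.22, with a 95% interval from -0.42 to -0.02, did not pass (adjusted p = 0.0834), and the groups were apart by less than the spread within either of them.

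TM7SF2, a sterol reductase that removes a double bond left by CYP51A1, moved against the 14 enzymes that fell. It read 8.60, 8.43 and 8.20 on the DMSO arrays and 10.10, 10.31 and 9.97 on the PD 0332991 arrays, a rise of 1.71 ± 0.12 (adjusted p = 1.36e-05). The lowest drug-treated array exceeded the highest vehicle array by more than 1 unit, and 299 of all genes rose further. LBR, the lamin B receptor of the inner nuclear membrane, carries the same reductase activity and is the other gene of this step. LBR read 10.18, 10.00 and 9.81 against 8.45, 8.45 and 8.37, and fell by 1.57 ± 0.10 (adjusted p = 6.34e-06). The genes of this single step therefore had opposite calls, each with groups that did not overlap.

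**Figure D3:**
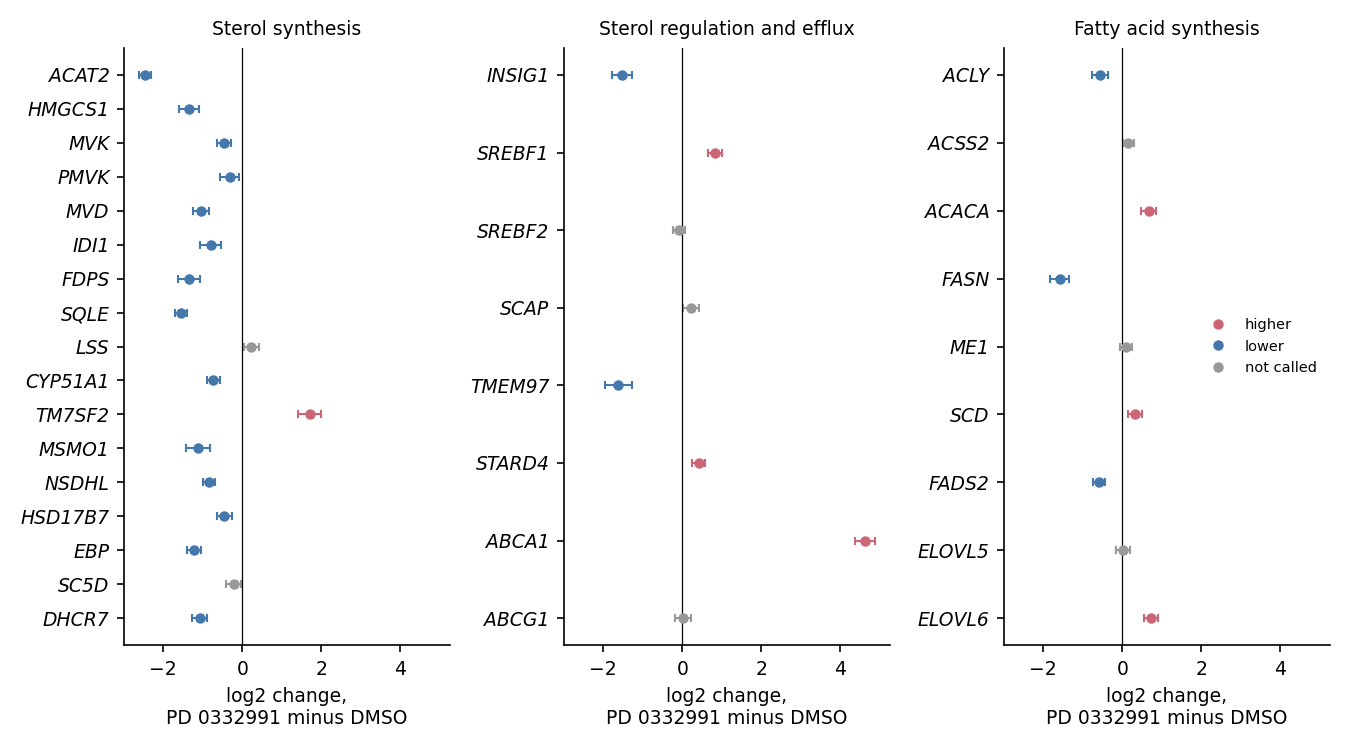
log2 change (PD 0332991 minus DMSO) of each measured gene by role, on a common axis, with bars for limma's 95% interval; blue marks called lower, red called higher, grey not called. TM7SF2 at 1.71 is the one sterol synthesis enzyme called higher, and ABCA1 at 4.62 lies far from every other gene shown.

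Promoter letters of 5 listed genes with different responses are shown next, as the 250 bases before the annotated start from RefSeq (GRCh38.p14), on the gene's own strand. RefSeq windows were held for 30 of the 34 genes. None was held for ACAT2, SQLE and FASN, which fell, or for ABCG1. Motifs were searched over 300 bases, 250 before to 50 after the start, on both strands. Capitals mark the CCAAT letters bound by NF-Y, a partner factor of SREBP, in either orientation (CCAAT or ATTGG), the E-box CACGTG, and the sterol regulatory element TCACNCCAC, to which SREBP binds. HMGCS1 and MSMO1 stand for the enzymes that fell, SREBF2 holds the single sterol regulatory element found, TM7SF2 is the enzyme that rose, and ABCA1 is the efflux gene.
HMGCS1, chr5:43313413-43313662, minus strand: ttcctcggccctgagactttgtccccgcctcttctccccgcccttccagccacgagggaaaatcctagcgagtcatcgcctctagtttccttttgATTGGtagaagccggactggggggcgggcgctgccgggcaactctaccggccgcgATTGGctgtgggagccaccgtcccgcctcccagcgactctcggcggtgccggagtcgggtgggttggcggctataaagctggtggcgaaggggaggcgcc
MSMO1, chr4:165327419-165327668, plus strand: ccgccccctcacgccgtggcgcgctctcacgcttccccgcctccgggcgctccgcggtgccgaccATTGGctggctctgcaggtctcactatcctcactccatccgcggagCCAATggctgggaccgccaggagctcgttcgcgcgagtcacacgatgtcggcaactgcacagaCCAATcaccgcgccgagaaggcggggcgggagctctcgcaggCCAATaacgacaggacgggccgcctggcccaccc
SREBF2, chr22:41832855-41833104, plus strand: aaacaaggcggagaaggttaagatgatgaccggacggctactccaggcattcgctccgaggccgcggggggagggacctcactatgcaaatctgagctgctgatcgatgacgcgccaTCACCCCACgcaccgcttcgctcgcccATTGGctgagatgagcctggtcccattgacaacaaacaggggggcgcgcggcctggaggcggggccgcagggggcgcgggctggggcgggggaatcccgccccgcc
TM7SF2, chr11:65111622-65111871, plus strand: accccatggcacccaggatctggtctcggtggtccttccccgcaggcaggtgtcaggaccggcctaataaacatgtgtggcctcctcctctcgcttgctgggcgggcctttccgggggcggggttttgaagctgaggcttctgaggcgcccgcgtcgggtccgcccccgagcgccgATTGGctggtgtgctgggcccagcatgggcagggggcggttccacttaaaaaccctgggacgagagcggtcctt
ABCA1, chr9:104928156-104928405, minus strand: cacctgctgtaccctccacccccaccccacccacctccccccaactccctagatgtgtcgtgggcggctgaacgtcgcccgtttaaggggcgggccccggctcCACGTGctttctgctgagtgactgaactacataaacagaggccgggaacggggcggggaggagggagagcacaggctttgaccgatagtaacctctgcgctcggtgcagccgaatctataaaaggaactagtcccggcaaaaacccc

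CCAAT letters were common in these windows. They were found in 12 of 15 sterol synthesis windows, 4 of 7 of sterol regulation and efflux and 4 of 8 of fatty acid synthesis, while 36.3% of the 15199 windows of tested genes hold them. In 9 of the 15 sterol synthesis windows they occurred at least 2 times, against 12.3% of tested genes. MSMO1 holds 4 copies and HMGCS1 holds 2, NSDHL and MVK hold 5 each, and a pair of those in NSDHL overlaps. TM7SF2, which rose, holds 1 copy, at position -74 counted back from the start. Of the 12 sterol synthesis windows whose genes fell, 9 hold at least 2 copies and 3 hold 0, while TM7SF2 and the uncalled LSS and SC5D hold 1 each, a difference that was not tested. No CCAAT letters were found in the ABCA1 window, which has an E-box at position -147. The sterol regulatory element was spelled out as above in SREBF2 alone, at position -133, and in 1.15% of tested genes, and degenerate forms of it were not searched. E-boxes were found in 6 of the 30 windows (8.55% of tested genes) and the E2F letters TTTCCCGC or TTTGGCGC in 2, MVK and ACACA (2.91%). A match is a description of letters, and binding was not measured here.

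The regulators of the pathway did not move as a block. SREBF2, which encodes the SREBP that drives most sterol genes, read 8.04, 8.12 and 8.05 in DMSO and 7.93, 8.00 and 8.03 in PD 0332991. Its change of -0.08, with a 95% interval from -0.24 to 0.07, did not pass (adjusted p = 0.434). SREBF1, the gene of the SREBP more tied to fatty acid synthesis, read 8.48, 8.38 and 8.38 against 9.20, 9.34 and 9.19. It rose by 0.83 ± 0.07 (adjusted p = 4.50e-05), with every drug-treated array above the vehicle arrays. SCAP, their escort, read 8.55, 8.38 and 8.32 against 8.67, 8.68 and 8.55, and its change of 0.22 (95% interval 0.03 to 0.42) did not pass (adjusted p = 0.0747). These are transcript levels, and cleavage of the SREBP proteins was not measured.

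INSIG1, the retention factor that is itself a sensitive SREBP target, fell with the enzymes. Its levels were 10.29, 10.64 and 10.69 in DMSO and 9.05, 8.96 and 9.03 in PD 0332991, and fell by 1.53 ± 0.11 (adjusted p = 1.36e-05). INSIG2, which has the same function and does not depend on SREBP in the same way, is outside the list and was looked at after values were seen. INSIG2 rose by 0.54 ± 0.08, from 8.79, 8.64 and 8.67 to 9.28, 9.14 and 9.29 (adjusted p = 0.000723). TMEM97, an endoplasmic reticulum protein that binds sterols and limits NPC1, had 8.26, 7.68 and 7.89 in DMSO against 6.44, 6.27 and 6.29. It fell by 1.61 ± 0.14 (adjusted p = 4.08e-05), the deepest fall among the regulators.

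Among the genes of sterol movement ABCA1 and STARD4 rose and ABCG1 did not pass. ABCA1, which exports cholesterol and phospholipid to apolipoprotein A-I, stood at 6.81, 6.64 and 6.57 in DMSO and at 11.24, 11.50 and 11.16 in PD 0332991. Its rise of 4.62 ± 0.11 (adjusted p = 5.49e-08) was the largest change on the list, and 8 of all genes rose further. Every drug-treated array lay more than 4 units above every vehicle array, and leaving out any array or the pair that stood apart kept the change between 4.53 and 4.70. NIPSNAP3B, whose span overlaps that of ABCA1, changed by 0.26 (adjusted p = 0.0380).

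ABCG1, the efflux pump that serves lipoprotein particles, had 4.37, 4.41 and 4.62 against 4.58, 4.42 and 4.46. The groups overlapped and its change of 0.02 (95% interval -0.18 to 0.23) did not pass (adjusted p = 0.898). Both means lie below every array median, so ABCG1 was not shown to be above background and a lack of response was not shown. STARD4, a soluble protein that carries cholesterol between membranes, had 9.47, 9.54 and 9.62 against 9.93, 9.94 and 10.02, and rose by 0.42 ± 0.07 (adjusted p = 0.00165).

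Within fatty acid synthesis FASN fell and ACACA rose. FASN, the synthase that builds palmitate, read 11.81, 11.79 and 11.59 in DMSO and 10.00, 10.30 and 10.15 in PD 0332991, and fell by 1.58 ± 0.10 (adjusted p = 7.16e-06). ACACA, the acetyl-CoA carboxylase that supplies its malonyl-CoA, went the other way, from 10.38, 10.40 and 10.24 to 10.92, 11.03 and 11.08, a rise of 0.66 ± 0.08 (adjusted p = 0.000218). Consecutive enzymes of the pathway thus had opposite calls, and neither had overlapping groups. ACLY, which splits citrate to give cytosolic acetyl-CoA, had 12.66, 12.66 and 12.40 against 11.99, 12.03 and 12.00, and fell by 0.56 ± 0.09 (adjusted p = 0.00101).

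The alternative suppliers showed small changes that did not pass. ACSS2, which makes acetyl-CoA from acetate, had 6.70, 6.75 and 6.75 against 6.88, 6.94 and 6.85, a change of 0.16 (95% interval 0.01 to 0.31; adjusted p = 0.0981). ME1, the malic enzyme that yields NADPH, had 10.17, 10.21 and 10.21 against 10.32, 10.28 and 10.29, a change of 0.10 (95% interval -0.04 to 0.24; adjusted p = 0.281). In ACSS2 and ME1 the drug-treated arrays all lay above the vehicle arrays, although neither gene passed the test.

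Desaturases and elongases that modify palmitate also went both ways. SCD, the stearoyl-CoA desaturase, read 17.00, 17.15 and 17.03 in DMSO and 17.33, 17.43 and 17.39 in PD 0332991, a rise of 0.32 ± 0.07 (adjusted p = 0.00704). These values exceed 16, the most a 16-bit scanner can give in log2, which makes the size of the rise uncertain, and the call was lost without the arrays that stood apart (adjusted p = 0.0528). FADS2, which desaturates polyunsaturated precursors, read 7.39, 7.40 and 7.49 against 6.90, 6.77 and 6.85, and fell by 0.59 ± 0.07 (adjusted p = 0.000234). The FADS2 and FADS1 genes overlap in the RefSeq table, and signal shared between them was not tested.

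ELOVL6, the elongase of palmitate, read 8.68, 8.63 and 8.54 against 9.43, 9.35 and 9.24, and rose by 0.72 ± 0.08 (adjusted p = 0.000123). ELOVL5, the elongase of polyunsaturated chains, read 11.15, 11.24 and 11.09 against 11.29, 11.13 and 11.13. Its groups overlapped and its change of 0.02 (95% interval -0.16 to 0.21) did not pass (adjusted p = 0.885). Over the 4 measured desaturases and elongases 2 rose, 1 fell and 1 did not pass.

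Other lipid genes outside the list also went both ways. Of 9 measured enzymes from the rest of the sterol and isoprenoid routes 5 fell, 0 rose and 4 did not pass, with a median of -0.50. The 55.6% called, all lower, compare with 69.8% of all genes called and 36.5% lower at the same levels. Besides LBR these included enzymes of the ubiquinone branch: PDSS1, which makes its isoprenoid tail, fell by 2.15 ± 0.11 (adjusted p = 2.51e-06), and COQ2, which attaches that tail, fell by 1.09 ± 0.08 (adjusted p = 1.42e-05).

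Of 25 measured genes of sterol uptake, transport and control 9 rose, 7 fell and 9 did not pass, with a median of 0.07. These shares, 36.0% higher and 28.0% lower, are near the 30.2% and 32.3% of all genes at the same levels. LRP1, an endocytic receptor for lipoprotein remnants, read 6.26, 6.22 and 6.09 in DMSO and 10.44, 10.81 and 10.48 in PD 0332991, a rise of 4.39 ± 0.11 (adjusted p = 7.68e-08). LRP1 and ABCA1 were the 2 genes of the lists examined here with rises above 4. LPCAT3, a phospholipid acyltransferase and known LXR target, rose by 2.04 ± 0.07 (adjusted p = 3.34e-07), while NCEH1, a hydrolase of cholesteryl esters, fell by 2.73 ± 0.10 (adjusted p = 4.18e-07). Looked at after values were seen, the SREBP-cleaving protease gene MBTPS1 rose by 1.43 ± 0.08 (adjusted p = 2.85e-06) and the lysosomal lipase gene LIPA rose by 1.16 ± 0.07 (adjusted p = 7.06e-06). The other SREBP-cleaving protease gene, MBTPS2, also looked at after values were seen, changed by -0.02 and did not pass (adjusted p = 0.930). NR1H3, the gene of LXR alpha, chosen in the same way, fell by 0.27 ± 0.07 (adjusted p = 0.0122), a call lost when all 65535 rows were tested (0.0649).

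Of 25 other measured fatty acid enzymes 9 fell, 6 rose and 10 did not pass, with a median of -0.04. Of all genes at the same levels 27.4% fell and 26.4% rose, against 36.0% and 24.0% here. ELOVL2, an elongase of very long polyunsaturated chains, went from 11.79, 11.74 and 11.62 to 8.33, 8.51 and 8.48, and fell by 3.27 ± 0.08 (adjusted p = 6.75e-08), and 122 of all genes fell further. FABP5, a fatty acid binding protein, fell by 2.27 ± 0.14 (adjusted p = 5.21e-06), and the acyl-CoA synthetase and transporter gene SLC27A4 fell by 1.43 ± 0.08 (adjusted p = 4.75e-06). Among those that rose, named after values were seen, were paralogs of listed genes. ACACB, the mitochondrial acetyl-CoA carboxylase, rose by 0.77 ± 0.07 (adjusted p = 4.49e-05), and the desaturase gene SCD5 rose by 0.91 ± 0.11 (adjusted p = 0.000234). IDH1, a cytosolic source of NADPH, rose by 1.24 ± 0.08 (adjusted p = 5.92e-06). The elongases ELOVL1 and ELOVL4 went apart: ELOVL1 fell by 0.67 ± 0.06 (adjusted p = 6.70e-05) and ELOVL4 rose by 0.90 ± 0.08 (adjusted p = 4.93e-05).

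Glycerolipid synthesis and lipid droplet genes had 10 of 28 measured members higher, 7 lower and 11 that did not pass, with a median of 0.06. Of all genes at the same levels 27.2% were higher and 27.6% lower, against 35.7% and 25.0% here. AGPAT5, an acyltransferase of phosphatidic acid synthesis, fell by 1.69 ± 0.09 (adjusted p = 2.26e-06), and PEMT, which methylates phosphatidylethanolamine, fell by 1.28 ± 0.08 (adjusted p = 5.25e-06). LPCAT1, a lysophosphatidylcholine acyltransferase, rose by 1.54 ± 0.12 (adjusted p = 2.12e-05). The droplet genes that follow were looked at after values were seen and went both ways. The triglyceride lipase gene PNPLA2 rose by 0.94 ± 0.10 (adjusted p = 0.000132), and DGAT2, a triglyceride synthase, fell by 0.75 ± 0.07 (adjusted p = 6.06e-05). MGLL, another lipase gene, fell by 1.01 ± 0.07 (adjusted p = 1.49e-05). Of the droplet coat genes, PLIN2 rose by 0.52 ± 0.07 (adjusted p = 0.000439) and PLIN3 fell by 0.97 ± 0.10 (adjusted p = 0.000121). PLIN1, PLIN4 and PLIN5 did not pass. None of these lists had a share of lower calls as high as the 82.4% of sterol synthesis, though the difference was not tested.

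**Figure D4:**
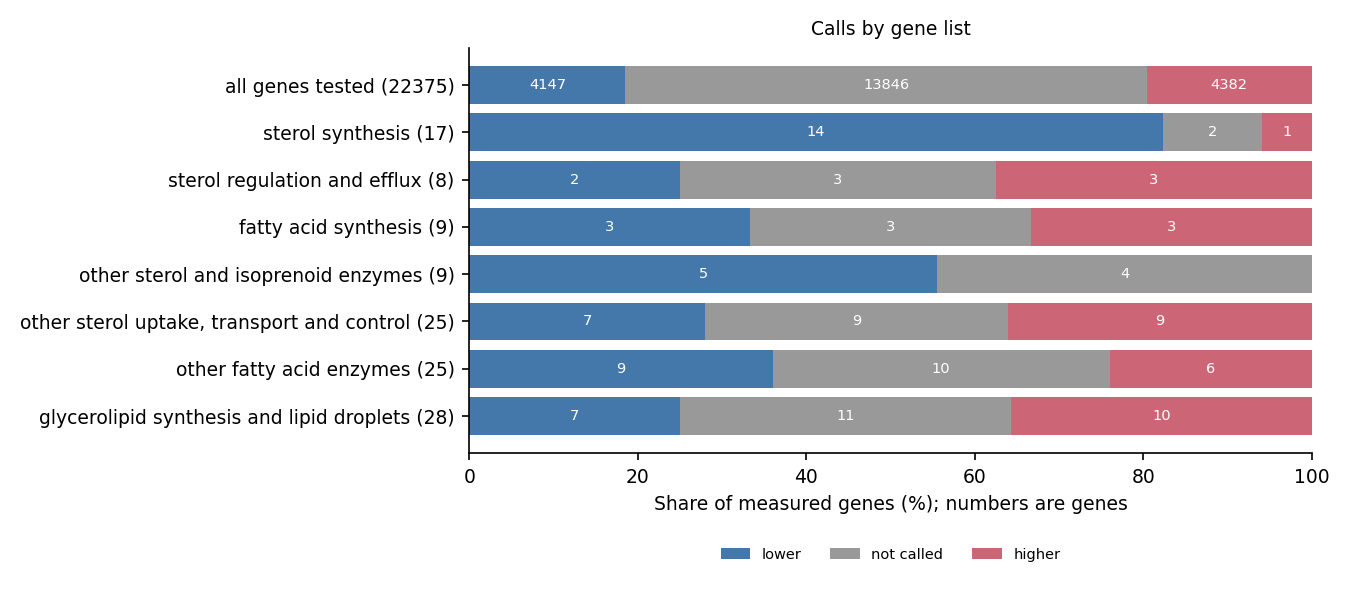
Share of the measured genes of each list called lower (blue), not called (grey) or called higher (red) in PD 0332991 against DMSO, in percent, with the number of genes printed in each segment and the number measured beside each name. Sterol synthesis has 14 of 17 genes called lower, against 4147 of 22375 for all genes, which are not matched for level. At the levels of the sterol synthesis genes 35.6% of all genes were called lower.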

How the data were processed

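Total RNA of 6 samples was measured on arrays. The authors deposited a table of log2 values with 65535 rows, made with Affymetrix Expression Console per the submitters' processing notes; the sources used here name neither its version nor the background correction or normalization, and the values themselves (1.87 to 19.9) gave the log base. The row number equals an older spreadsheet's limit less a header, so rows may be missing. The labels name 2 preparation kits and do not settle which was used. Of the rows, 22685 carry 1 gene symbol, 1385 several and 41465 none; for 296 genes with several rows the one with the highest mean was used.

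PD 0332991 was compared with DMSO in R 4.3.3 with limma 3.58.1 (lmFit, eBayes, no further scaling or filter, two-sided, Benjamini-Hochberg over 22375 genes), a procedure tested on simulated data. The arrays' number limits precision, with a median standard error of 0.0875. No detection flags or scan dates were used. The alternatives were other scalings, filters, variance models, a replicate block and left-out arrays. The members and lists were chosen with earlier results of these data known. Named were all measured members, up to 3 called genes with the largest change of each other list, and LBR; others are said to be chosen after values were seen.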

Additional observations from a re-analysis of the deposited data

How the results depend on the processing

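Over 16 alternatives, 26 of the 34 measured genes kept both direction and call. A call was lost in some of them for PMVK and SCD, and gained in some for LSS, SC5D, SCAP and ACSS2. PMVK also lost its call after quantile normalization (adjusted p = 0.101), when all rows were tested (0.129) and with the replicate number as a block (0.0955). ABCG1 and ELOVL5, neither called, turned sign. Leaving out single arrays, the change of ABCG1 ranged from -0.025 to 0.098, below 0 without DMSO replicate 1 or 2 or PD 0332991 replicate 1. That of ELOVL5 ranged from -0.033 to 0.062, below 0 without DMSO replicate 3 or PD 0332991 replicate 1, and was -0.041 with array weights. The causes were not tested. The count of sterol synthesis genes called higher was 2 in place of 1 after quantile normalization, with array weights and without dim genes, where LSS joined TM7SF2. In the same 3 settings 1 of the other sterol and isoprenoid enzymes was called higher in place of 0. Testing all rows left 4 in place of 7 genes of sterol uptake, transport and control lower. Across all alternatives 18 to 20 of the genes fell and 6 to 10 rose, and 13 to 15 sterol synthesis enzymes fell.

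No sign of pairing by replicate number was seen: the deviations of same-numbered arrays from their group means had correlations of -0.30, -0.13 and 0.02. Deviations within a group of 3 arrays are not independent, so these values do not settle whether same-numbered arrays shared a culture. With the replicate number as a block 7 of the genes rose and 18 fell, and 3902 of all genes rose and 3806 fell, against 4382 and 4147 without it. Dim genes such as ABCG1 limit what can be said of a lack of change, since no background level was given.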

Other observations

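Within the DMSO group, where 40.2% of all genes had their lowest value on replicate 1, 11 of the 17 sterol synthesis genes did. Their median deviation from the group mean was -0.05 on that array, 0.02 on replicate 2 and 0.05 on replicate 3, against -0.01, 0.00 and 0.01 over all genes. MSMO1, for example, read 11.25 there and 11.72 and 11.67 on the other vehicle arrays, the regulator INSIG1 read 10.29 against 10.64 and 10.69, and HMGCS1 read 10.61 against 10.93 and 11.01. The same array was one of the pair that stood apart over all rows. TMEM97 went the other way, with its highest vehicle value, 8.26, on replicate 1. In the PD 0332991 group, 9 of the 17 sterol synthesis genes were lowest on replicate 3, against 32.5% of all genes.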
